A study of Mus musculus with 10 samples.

Results

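Red pulp macrophage genes were examined as 34 transcripts of 22180 genes measured on single-channel arrays in sorted mouse regulatory T (Treg) cells, CD4 lymphocytes that hold immune responses in check and express the transcription factor Foxp3. The 34 genes were listed by name, and each was represented by 1 probe set whose annotation named that gene alone. There were 5 wild type (WT) samples and 5 samples lacking LKB1, the protein kinase encoded by Stk11, which are called deletion arrays 1 to 5 by their replicate number. Both groups came from mixed chimeras, hosts whose blood system is rebuilt from marrow of different donors, and the cells were lysed straight after the sort. The sources used here do not give the organ of the sort, the age of the animals, the Cre driver of the deletion, the host genotype or the number of animals behind a sample. The genes were put on the list because earlier results of these same arrays had shown macrophage transcripts on deletion arrays 4 and 5. The high values of the 34 genes on those 2 arrays are therefore a description, without a test, and the question addressed is which macrophage type these transcripts resemble.

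Red pulp macrophages are the resident phagocytes of the splenic red pulp. They engulf aged red blood cells, open the heme ring with heme oxygenase and return the iron to the circulation through the exporter ferroportin. Heme relieves repression of the transcription factor SPI-C, which these macrophages need for their development, and SPI-C in turn favours the genes Vcam1 and Slc40a1. Treg cells are lymphocytes and are not known for this program, and the values below are signals of the sorted samples, with no cell assigned to them. In such bulk samples fewer cells of a type and less RNA per cell cannot be told apart.

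Over all genes, deletion arrays 4 and 5 correlated with each other at r = 0.989 and with the WT arrays at 0.976 to 0.980. WT arrays correlated among themselves at 0.990 to 0.993. Deletion arrays 1 to 3 correlated with the WT arrays at 0.975 to 0.989, and deletion array 1 was the lowest (0.975 to 0.977). These correlations therefore did not set deletion arrays 4 and 5 alone apart. Array medians over all probe sets ranged from 4.83 to 4.94 in log2 units. Stk11 was at 6.61, 6.69, 6.75, 6.95 and 6.92 on WT arrays 1 to 5, at 6.57, 6.01 and 6.05 on deletion arrays 1 to 3, and at 6.71 and 6.78 on deletion arrays 4 and 5, so deletion arrays 4 and 5 lay within the WT range for the targeted gene, and the sources used here do not say which exons its probe set covers. Defining transcripts of the labelled cell type were present on them, with Foxp3 at 11.29 and 11.10 (deletion arrays 4 and 5) against 10.95 to 11.19 in WT, and Cd3e at 11.67 and 11.67 against 11.86 to 11.98 in WT. Replicates 1 to 3 of both genotypes carry running numbers 1 to 6 in the sample descriptions and replicates 4 and 5 the numbers 7 to 10. These 2 blocks are called set 1 and set 2 here, and what the numbers stand for is not stated.

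SPI-C belongs to the ETS family and recognises the same purine-rich sequence, the PU box, as its relative PU.1. RefSeq promoter windows of 300 bases (250 before to 50 after the gene start, build GRCm38.p6) were matched for 23 of the 34 genes. The 6-letter core GAGGAA was searched on both strands and occurred in 15 of these 23 windows (65.2%), against 28.3% of all 32851 windows of that length. The 8-letter form GAGGAAGT, which contains the core, occurred in 3 of the 23, those of Fcgr4, Ctss and C1qc (13%), against 3.2% of all windows. A match is a run of letters and not a binding site. Stretches of 80 bases before the start are shown for 6 genes with a core, chosen with their values known, to set 2 complement chains and a ficolin beside an Fc receptor, a scavenger protein and a receptor of red pulp macrophages. Each core is in capitals as GAGGAA or, where it lies on the other strand, TTCCTC.
C1qc, chr4:136893065-136893144, minus strand: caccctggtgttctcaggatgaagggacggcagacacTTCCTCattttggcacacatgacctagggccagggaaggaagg
C1qb, chr4:136886201-136886280, minus strand: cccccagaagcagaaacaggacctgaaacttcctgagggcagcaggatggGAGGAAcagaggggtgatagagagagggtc
Fcgr4, chr1:171018846-171018925, plus strand: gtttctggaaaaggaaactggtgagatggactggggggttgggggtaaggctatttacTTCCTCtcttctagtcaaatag
Cd5l, chr3:87357778-87357857, plus strand: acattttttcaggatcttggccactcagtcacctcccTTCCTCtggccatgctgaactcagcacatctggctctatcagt
Fcna, chr2:25628114-25628193, minus strand: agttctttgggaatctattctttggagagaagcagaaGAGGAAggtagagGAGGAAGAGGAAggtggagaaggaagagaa
Treml4, chr17:48264080-48264159, plus strand: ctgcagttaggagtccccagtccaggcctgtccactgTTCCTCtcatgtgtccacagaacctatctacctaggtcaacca
C1qb and C1qc are neighbours on chromosome 4. In C1qc the core begins 193 bases before the start and is part of the 8-letter form, in Fcgr4 it begins 22 bases before the start and is too. In C1qb it begins 30 bases before the start on the gene strand, and the Fcna stretch holds 3 cores.

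All 34 genes were above every WT array on deletion array 4 and on deletion array 5, where 22.0% and 20.4% of all genes were. On 33 of the 34, deletion arrays 4 and 5 both lay above the other 8 arrays, where 5.39% of all genes did so, and on 31 they did so by at least 1 log2 unit, where 0.87% of all genes did. The mean of the 2 arrays exceeded the WT mean by 2.83 log2 units in the median over the 34 genes, and by 0.38 (Ctss) to 3.40 (Ccr3). The same median over all genes was -0.02. The 34 genes were chosen for this contrast, so these counts describe the list and support nothing further.

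**Figure D1:**
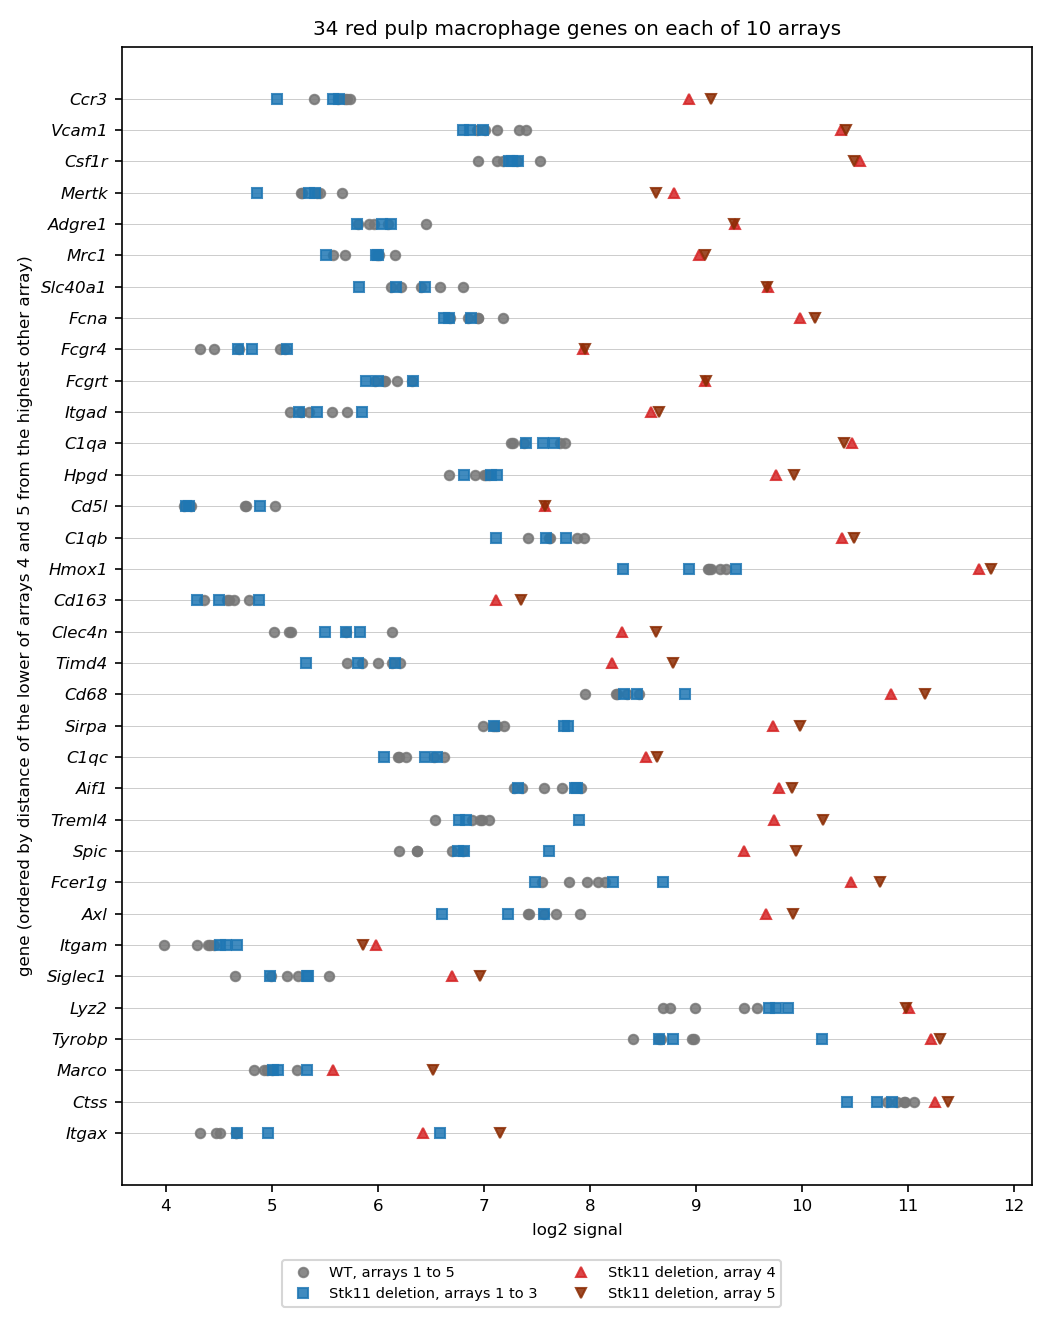
Log2 signal (x axis) of each of the 34 genes (y axis) on the 10 arrays, with a symbol for each array: grey circles are WT, blue squares deletion arrays 1 to 3, and red and brown triangles deletion arrays 4 and 5. The triangles lie to the right of all other symbols for 33 genes, and Itgax, in the bottom row, is the exception.

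Spic, the transcription factor that red pulp macrophages require, was at 6.80, 6.37, 6.70, 6.37 and 6.20 on WT arrays 1 to 5, at 7.61, 6.76 and 6.81 on deletion arrays 1 to 3, and at 9.45 and 9.94 on deletion arrays 4 and 5. The last 2 arrays were above all others, 9.24-fold over the WT mean of 6.49 ± 0.25 (SD, n = 5), and deletion array 1 stood between them and the rest. Spi1, which encodes PU.1, the ETS factor of the whole myeloid lineage, was at 6.24, 6.21, 6.12, 6.15 and 6.11 on WT arrays 1 to 5, at 6.99, 6.30 and 6.22 on deletion arrays 1 to 3, and at 8.13 and 8.44 on deletion arrays 4 and 5, with deletion array 1 again between. Bach1, the heme-sensing repressor of Spic and Hmox1, which was picked for naming after its values were seen, was at 6.99 and 6.6 on deletion arrays 4 and 5, against 6.29 to 6.73 in WT and 6.57 to 7.07 in deletion samples 1 to 3, so its values overlapped. Csf1r, the receptor for the growth factor that keeps macrophages alive, was at 7.18, 7.12, 7.53, 7.31 and 6.94 on WT arrays 1 to 5, at 7.27, 7.24 and 7.32 on deletion arrays 1 to 3, and at 10.55 and 10.49 on deletion arrays 4 and 5. Deletion arrays 4 and 5 were 9.85-fold over WT for Csf1r, and deletion arrays 1 to 3 lay inside the WT range. Of 15 measured genes in a list of SPI-C, PU.1 and growth factor genes, which includes Csf1r, 6 had both arrays above the other 8 and 2 by at least 1 log2 unit, with a median difference from WT of 0.24.

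The adhesion molecule VCAM1, a classical surface marker of red pulp macrophages, had the gene Vcam1 at 7.33, 7.13, 7.40, 7.01 and 6.93 on WT arrays 1 to 5, at 6.80, 6.87 and 7.0 on deletion arrays 1 to 3, and at 10.37 and 10.41 on deletion arrays 4 and 5. This was 9.39-fold over WT on deletion arrays 4 and 5, while deletion arrays 1 and 2 lay below the whole WT range. Adgre1, which encodes F4/80, was at 6.10, 5.92, 6.46, 5.96 and 5.82 on WT arrays 1 to 5, at 6.12, 5.80 and 6.04 on deletion arrays 1 to 3, and at 9.37 and 9.36 on deletion arrays 4 and 5, or 9.94-fold over WT. Itgad, the alpha D integrin chain found on red pulp macrophages, was at 5.71, 5.35, 5.57, 5.17 and 5.28 on WT arrays 1 to 5, at 5.26, 5.43 and 5.85 on deletion arrays 1 to 3, and at 8.58 and 8.65 on deletion arrays 4 and 5. In contrast to Itgad, the neighbouring integrin genes Itgam (CD11b) and Itgax (CD11c) showed smaller differences. Itgam was at 3.98, 4.29, 4.46, 4.42 and 4.40 on WT arrays 1 to 5, at 4.67, 4.51 and 4.57 on deletion arrays 1 to 3, and at 5.99 and 5.86 on deletion arrays 4 and 5, 3.06-fold over WT. Itgax was at 4.67, 4.51, 4.66, 4.47 and 4.32 on WT arrays 1 to 5, at 6.58, 4.67 and 4.96 on deletion arrays 1 to 3, and at 6.42 and 7.15 on deletion arrays 4 and 5, and this was the only 1 of the 34 genes on which deletion array 1 exceeded deletion array 4. Low CD11b beside high F4/80 and VCAM1 is the textbook surface phenotype of red pulp macrophages, but these transcript values do not show it. Itgam was itself above WT on deletion arrays 4 and 5. Array signals of different genes were not set against each other, and only the differences from WT are compared here.

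The heme and iron genes separated the arrays in the same way. Hmox1, heme oxygenase 1, was at 9.23, 9.11, 9.28, 9.14 and 9.12 on WT arrays 1 to 5, at 8.94, 8.32 and 9.37 on deletion arrays 1 to 3, and at 11.67 and 11.78 on deletion arrays 4 and 5. It was 5.84-fold over WT on deletion arrays 4 and 5, and deletion array 2 was the lowest of all. Slc40a1, which encodes ferroportin, was at 6.41, 6.13, 6.59, 6.22 and 6.80 on WT arrays 1 to 5, at 6.44, 5.82 and 6.17 on deletion arrays 1 to 3, and at 9.67 and 9.67 on deletion arrays 4 and 5, which is 9.45-fold over WT. Cd163, the receptor for haemoglobin bound to haptoglobin, was at 4.60, 4.78, 4.36, 4.64 and 4.57 on WT arrays 1 to 5, at 4.88, 4.30 and 4.51 on deletion arrays 1 to 3, and at 7.12 and 7.35 on deletion arrays 4 and 5, a difference of 2.64 from WT. Among 21 other measured genes of heme and iron handling, 7 had both arrays above the other 8 and 3 by at least 1 log2 unit, with a median difference from WT of 0.22. The 3, with their differences from WT, were Hfe (2.32), the haemochromatosis protein, Slc11a1 (1.93), the phagosomal metal transporter NRAMP1, and Blvrb (1.83), biliverdin reductase B. Slc48a1, the heme transporter HRG1, was 1.15 above WT. The smaller part of this list, and not the whole of it, therefore followed Hmox1 and Slc40a1, whose values had entered the choice of the 34 genes.

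Complement and collectin genes were next. C1q is the recognition part of the classical complement pathway, built from 3 chains that macrophages secrete. C1qa was at 7.76, 7.38, 7.72, 7.27 and 7.26 on WT arrays 1 to 5, at 7.66, 7.40 and 7.56 on deletion arrays 1 to 3, and at 10.47 and 10.40 on deletion arrays 4 and 5. C1qb was at 7.95, 7.63, 7.88, 7.62 and 7.42 on WT arrays 1 to 5, at 7.78, 7.11 and 7.58 on deletion arrays 1 to 3, and at 10.38 and 10.49 on deletion arrays 4 and 5. C1qc was at 6.53, 6.27, 6.62, 6.20 and 6.19 on WT arrays 1 to 5, at 6.56, 6.06 and 6.44 on deletion arrays 1 to 3, and at 8.53 and 8.63 on deletion arrays 4 and 5. For all 3 chains the arrays formed the same 2 blocks, with deletion arrays 4 and 5 7.77-, 6.66- and 4.65-fold over WT and deletion arrays 1 to 3 within the WT range except array 2, which lay below it for C1qb and C1qc. Fcna, ficolin A, a soluble lectin of the complement system, was at 7.18, 6.86, 6.95, 6.94 and 6.68 on WT arrays 1 to 5, at 6.67, 6.62 and 6.88 on deletion arrays 1 to 3, and at 9.98 and 10.12 on deletion arrays 4 and 5, or 8.75-fold over WT. Among 16 other complement genes 4 had both arrays above the other 8 and 1, Cfp (properdin, 2.36 above WT), did so by at least 1 log2 unit. The median difference of these 16 genes was 0.36.

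Receptors for dying cells and scavenger receptors followed. Mertk, a receptor tyrosine kinase for apoptotic cells, was at 5.43, 5.28, 5.45, 5.28 and 5.66 on WT arrays 1 to 5, at 5.41, 4.86 and 5.35 on deletion arrays 1 to 3, and at 8.79 and 8.62 on deletion arrays 4 and 5, 9.75-fold over WT. Axl, a kinase of the same family, was at 7.42, 7.68, 7.90, 7.56 and 7.42 on WT arrays 1 to 5, at 7.56, 6.61 and 7.23 on deletion arrays 1 to 3, and at 9.66 and 9.91 on deletion arrays 4 and 5, 4.56-fold over WT, and its deletion arrays 2 and 3 were the lowest of the 10. Cd5l, a secreted scavenger protein of tissue macrophages, was at 4.75, 5.03, 4.76, 4.24 and 4.18 on WT arrays 1 to 5, at 4.20, 4.22 and 4.89 on deletion arrays 1 to 3, and at 7.58 and 7.58 on deletion arrays 4 and 5. Mrc1, the mannose receptor, was at 6.0, 6.01, 6.17, 5.69 and 5.58 on WT arrays 1 to 5, at 5.99, 5.51 and 6.0 on deletion arrays 1 to 3, and at 9.03 and 9.08 on deletion arrays 4 and 5. Both genes separated deletion arrays 4 and 5 from the rest by 2.55 (Cd5l) and 2.87 (Mrc1) log2 units, measured from the lower of the 2 arrays to the highest of the other 8. Timd4, the phosphatidylserine receptor TIM-4, was at 6.21, 6.0, 6.13, 5.85 and 5.71 on WT arrays 1 to 5, at 5.81, 5.32 and 6.17 on deletion arrays 1 to 3, and at 8.21 and 8.78 on deletion arrays 4 and 5. Marco, a scavenger receptor of marginal zone macrophages, was at 5.24, 4.83, 5.00, 4.96 and 4.93 on WT arrays 1 to 5, at 5.06, 5.33 and 5.02 on deletion arrays 1 to 3, and at 5.57 and 6.52 on deletion arrays 4 and 5, and its separation was 0.25. Cd68, a lysosomal protein of phagocytes, was at 10.84 and 11.16 on the last 2 arrays, against 7.96 to 8.46 in WT and 8.32 to 8.89 in deletion samples 1 to 3.

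Fc receptors and their adaptors were also high on deletion arrays 4 and 5. Fcgr4, an activating receptor for IgG, was at 4.69, 5.12, 5.08, 4.33 and 4.45 on WT arrays 1 to 5, at 5.14, 4.82 and 4.68 on deletion arrays 1 to 3, and at 7.93 and 7.96 on deletion arrays 4 and 5, 9.24-fold over WT. Fcgrt, the neonatal Fc receptor that salvages IgG, differed from WT by 2.97, with 9.08 and 9.09 against 5.97 to 6.32 in WT and 5.89 to 6.33 in deletion samples 1 to 3. Tyrobp (DAP12) and Fcer1g (the FcR gamma chain) are adaptors that natural killer cells and myeloid cells share. Tyrobp was at 11.22 and 11.30, against 8.41 to 8.98 in WT and 8.65 to 10.19 in deletion samples 1 to 3, and the value of 10.19 on deletion array 1 exceeded the WT arrays as well. Fcer1g was at 10.46 and 10.74, against 7.55 to 8.15 in WT and 7.48 to 8.69 in deletion samples 1 to 3. In a list of 23 other receptors and signalling genes around these adaptors, 12 had both arrays above the other 8 and 5 by at least 1 log2 unit, with a median difference of 1.07. In order of separation the first 4 were Pilrb1, Fcgr3, Fcgr1 and Pilrb2, with separations of 2.77, 1.72, 1.52 and 1.38, and the paired receptor genes Pilrb1 and Pilrb2, like Fcgr3 and Fcgr4, are similar enough that probes may share signal.

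Among the remaining receptors, Ccr3, a chemokine receptor listed among the transcripts of red pulp macrophages and also carried by eosinophils, had the largest difference of all 34 genes. It was at 5.74, 5.69, 5.71, 5.62 and 5.40 on WT arrays 1 to 5, at 5.58, 5.05 and 5.63 on deletion arrays 1 to 3, and at 8.93 and 9.14 on deletion arrays 4 and 5, 10.6-fold over WT. Treml4, a receptor of red pulp macrophages and some dendritic cells, was at 6.89, 6.99, 6.96, 7.04 and 6.54 on WT arrays 1 to 5, at 7.89, 6.77 and 6.83 on deletion arrays 1 to 3, and at 9.73 and 10.20 on deletion arrays 4 and 5, with deletion array 1 above the WT range. Sirpa, the receptor for the CD47 signal on red cells, was at 9.73 and 9.98, against 6.99 to 7.19 in WT and 7.09 to 7.79 in deletion samples 1 to 3. Clec4n, the lectin dectin-2, was at 8.30 and 8.62, against 5.03 to 6.14 in WT and 5.50 to 5.84 in deletion samples 1 to 3.

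Siglec1, the sialoadhesin of metallophilic marginal zone macrophages, was at 5.54, 4.65, 5.14, 5.25 and 4.99 on WT arrays 1 to 5, at 4.98, 5.35 and 5.33 on deletion arrays 1 to 3, and at 6.70 and 6.96 on deletion arrays 4 and 5, 3.29-fold over WT. Together with Marco, Itgam and Ctss it had 1 of the 4 smallest differences. Ctss (cathepsin S), a lysosomal protease of antigen-presenting cells, was at 11.25 and 11.38, against 10.80 to 11.06 in WT and 10.42 to 10.85 in deletion samples 1 to 3, so the separation was 0.19. Hpgd, which degrades prostaglandins, was at 6.92, 7.0, 7.05, 7.02 and 6.67 on WT arrays 1 to 5, at 7.12, 6.81 and 7.06 on deletion arrays 1 to 3, and at 9.76 and 9.93 on deletion arrays 4 and 5. Lyz2, lysozyme of phagocytes, was at 9.57, 8.69, 9.45, 8.99 and 8.75 on WT arrays 1 to 5, at 9.87, 9.68 and 9.76 on deletion arrays 1 to 3, and at 11.01 and 10.98 on deletion arrays 4 and 5, and deletion arrays 1 to 3 lay above the whole WT range there too. Aif1, the cytosolic protein IBA1, was at 9.79 and 9.90, against 7.29 to 7.92 in WT and 7.32 to 7.88 in deletion samples 1 to 3. Among all 34 genes the widest separations were those of Ccr3 (3.19), Vcam1 (2.97), Csf1r (2.96), Mertk (2.96), Adgre1 (2.90), Mrc1 (2.87) and Slc40a1 (2.86). Lyz2 (1.12), Itgam (1.19), Tyrobp (1.03) and Itgax (-0.16), which many myeloid cells carry, were among the 7 with the narrowest, with Siglec1 (1.16), Marco (0.25) and Ctss (0.19). For Tyrobp and Itgax the highest other array was deletion array 1 (10.19 and 6.58), and their differences from WT were 2.52 and 2.26. Cd68 (1.95) and Fcer1g (1.77), which other myeloid cells carry too, were not among these 7. The order therefore did not divide red pulp genes from genes that myeloid cells share.

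On deletion array 1, 12 of the 34 genes exceeded the 5 WT arrays, where 27.1% of all genes did. They were Spic, Cd163, Fcgr4, Fcgrt, Tyrobp, Fcer1g, Itgam, Itgax, Sirpa, Treml4, Hpgd and Lyz2. Vcam1, Csf1r, Mertk, Adgre1, Slc40a1, Cd5l and all C1q chains were not among them. Of 12 B cell markers, 10 exceeded all WT arrays on deletion array 1, where the mean of the list was 6.40 against 4.75 to 5.23 on WT arrays, 4.89 on deletion arrays 2 and 3, and 5.65 and 5.73 on deletion arrays 4 and 5. S100a8 and S100a9, which neutrophils carry, were at 9.26 and 9.19 on deletion array 1, against 5.58 to 6.45 in WT (S100a8) and 5.49 to 6.62 in WT (S100a9). Foxp3 was at 9.86 there, below its WT range, and the mean of 16 T cell and Treg markers was 10.14, against 10.66 to 10.72 on WT arrays and 10.55 and 10.49 on deletion arrays 4 and 5. The part of these cell types in the values of the 34 genes was not tested. Deletion array 3 exceeded WT on 10 genes (20.7% of all genes) and deletion array 2 on 4 (21%). Deletion array 2 was below the whole WT range on 16 of the 34, among them Hmox1, Axl, Vcam1 and Ccr3, where 24.7% of all genes were.

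The WT arrays of the 2 sets were compared as a description, since all 5 WT arrays stand in the contrast by which the genes were chosen and low values on any of them enlarge it. WT arrays 4 and 5 both lay below WT arrays 1 to 3 on 14 of the 34 genes, where 9.44% of all genes did, and on 0 did both lie above, where 12.1% of all genes did. The 14 were Spic, C1qa, C1qb, C1qc, Timd4, Cd5l, Mrc1, Cd68, Fcgr4, Fcer1g, Vcam1, Itgad, Itgax and Ccr3. The median difference between the sets was -0.19 over the 34 genes and 0.02 over all genes, and the largest was that of Cd5l, -0.63 (SE 0.20). No single gene passed, since limma called 0 of the 34 and 0 of all genes (0% in each direction) at an adjusted p under 0.05. At an unadjusted p under 0.05, 0 of the 34 were higher in set 2, where 1.9% of all genes were, and 5 were lower (C1qa, Cd5l, Mrc1, Fcgr4 and Vcam1), where 1.19% of all genes were. In a simulation of this comparison, 56% of genes changed by 1 log2 unit were recovered and 0% of those changed by 0.5.

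The study's own comparison, all 5 deletion against all 5 WT arrays, called 0 of the 34 genes in either direction at an adjusted p under 0.05 in limma, where 0.234% of all genes were called higher and 0.83% lower. At an unadjusted p under 0.05, 12 of the 34 were higher, where 5.19% of all genes were, and 0 lower, where 8.8% were. The genes were listed for high values on 2 of the deletion arrays in this comparison. An excess of higher genes was therefore built into these counts, and nothing is read from them. The differences ran from -0.02 (Ctss) to 1.63 (Spic, SE 0.55), and the smallest adjusted p was 0.0830 (Lyz2, difference 1.17). The 5 deletion arrays split into 2 high and 3 low values on most of the 34 genes, and their spread was accordingly large. The SD of Vcam1 was 1.92 in the deletion group and 0.20 in WT.

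Within set 1, deletion minus WT was negative for 20 and positive for 14 of the 34 genes, with a median of -0.04 and 0 called by limma (0 of all genes). At an unadjusted p under 0.05, 1 of the 34 was higher (Lyz2, 0.53), where 3.92% of all genes were, and 1 lower (Vcam1, -0.40), where 6.21% were. Within set 2 it was positive for all 34, with a median of 2.92, and 32 were called higher (1.91% of all genes) and 0 lower (0.207%). That count restates the contrast by which the genes were chosen and nothing is read from it. The 2 genes not called in set 2 were Marco (1.11) and Ctss (0.38). Set 2 has 2 arrays in each group. WT arrays 4 and 5 belong to set 2 as well, and none of the 34 genes was as high on them as on deletion arrays 4 and 5.

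**Figure D2:**
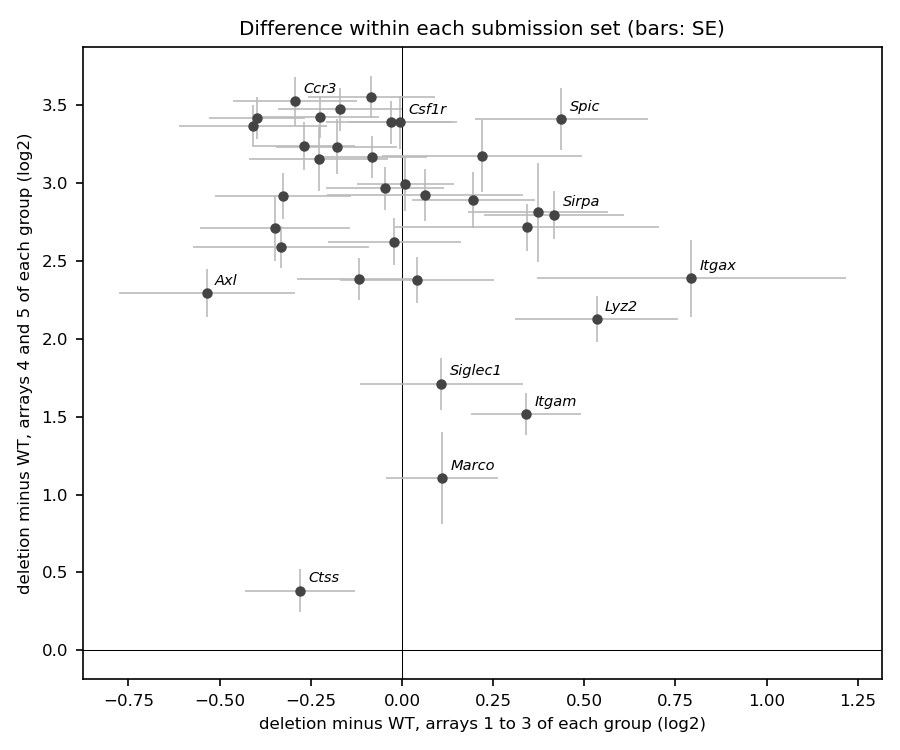
Difference between deletion and WT on the log2 scale within set 1 (x axis, 3 against 3 arrays) and within set 2 (y axis, 2 against 2 arrays) for the 34 genes, with bars for the SE of the limma fit of each set. Points spread on both sides of 0 on the x axis, from -0.53 (Axl) to 0.79 (Itgax), and lie between 0.38 and 3.55 on the y axis.

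Other macrophage types were compared through lists of their markers, which were drawn up with earlier results of these arrays known. None of the 34 genes is in the lists of cell types, so a gene that several types share counts for the red pulp list alone. Of the markers of macrophages in general, 25 of 33 had deletion arrays 4 and 5 above the other 8 and 13 by at least 1 log2 unit, with a median difference from WT of 1.36. The widest separations were those of Mpeg1 (2.60), the pore-forming protein perforin-2, Tlr13 (2.33), a receptor for bacterial ribosomal RNA, Lgmn (2.30), a lysosomal protease, and Ms4a7 (2.03). The values in parentheses for the lists that follow are differences from the WT mean. Kupffer cells, the macrophages of liver sinusoids, had 5 of 10 markers above and 2 by at least 1 log2 unit, with a median of 0.46. The 2 were C6 (3.06), a terminal complement component, and Clec1b (2.30), the lectin CLEC-2, which platelets also carry. Clec4f, the defining Kupffer cell lectin, was at 5.62, 4.95, 5.19, 5.08 and 5.41 on WT arrays 1 to 5, at 5.00, 4.96 and 4.98 on deletion arrays 1 to 3, and at 4.95 and 5.06 on deletion arrays 4 and 5, without separation. Vsig4, another Kupffer cell receptor, was at 3.70 and 3.54 on deletion arrays 4 and 5, against 2.71 to 3.47 in WT.

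Alveolar macrophages, those of the lung, had 3 of 13 markers above and 2 by at least 1 log2 unit, with a median of 0.17. Pparg, their nuclear receptor, was at 4.18, 4.53, 4.59, 4.56 and 4.63 on WT arrays 1 to 5, at 4.75, 4.61 and 4.15 on deletion arrays 1 to 3, and at 6.17 and 6.52 on deletion arrays 4 and 5, and Fabp4, a fatty acid binding protein, differed by 1.57. Siglecf, their defining surface lectin, was at 4.30 and 3.99, against 3.82 to 4.12 in WT and 3.75 to 4.20 in deletion samples 1 to 3, so its values overlapped. Large peritoneal macrophages had 1 of 12 markers above and 0 by at least 1 log2 unit, with a median of 0.10. Gata6, the transcription factor that defines them, was at 3.68 and 3.69, against 3.49 to 3.76 in WT. Microglia, the macrophages of the brain, had 3 of 11 above and 1, P2ry13 (2.72), by at least 1 log2 unit, with a median of 0.09. P2ry12, a purine receptor, was at 5.19, 5.28, 5.17, 4.82 and 5.74 on WT arrays 1 to 5, at 5.36, 5.09 and 5.14 on deletion arrays 1 to 3, and at 6.48 and 7.17 on deletion arrays 4 and 5, while for Tmem119 (4.60 and 4.49, against 4.44 to 4.56 in WT) and Sall1 (3.76 and 3.52, against 3.09 to 3.80 in WT) at least 1 of the 2 arrays lay within the WT range.

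Marginal zone macrophages border the splenic white pulp. Of their markers outside the 34 genes, 4 of 8 had both arrays above the other 8 and 0 by at least 1 log2 unit, with a median of 0.42. Cd209b, the lectin SIGN-R1 that defines them, was at 5.08, 3.78, 4.94, 4.70 and 4.51 on WT arrays 1 to 5, at 5.08, 4.69 and 3.91 on deletion arrays 1 to 3, and at 5.48 and 6.45 on deletion arrays 4 and 5, and Cd209d differed from WT by 1.88. The Cd209 genes are a family of close copies whose probes may share signal. Classical monocytes had 3 of 12 markers above and 0 by at least 1 log2 unit, with a median of 0.35. Ly6c2 was at 8.0 and 8.13, against 7.52 to 7.84 in WT and 7.89 to 8.30 in deletion samples 1 to 3, and Ccr2, the receptor by which monocytes leave the marrow, at 6.80 and 6.86, against 6.40 to 7.43 in WT. Nonclassical monocytes had 4 of 10 above and 2 by at least 1 log2 unit, Cd300e (1.91) and Fabp4, with a median of 0.11. Cx3cr1 was at 7.0 and 7.45, against 5.71 to 6.61 in WT and 6.47 to 6.83 in deletion samples 1 to 3. Nr1h3 stands in 4 of the lists, and Fabp4 and Cx3cr1 in 2 each, so the counts of the lists are not separate.

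**Figure D3:**
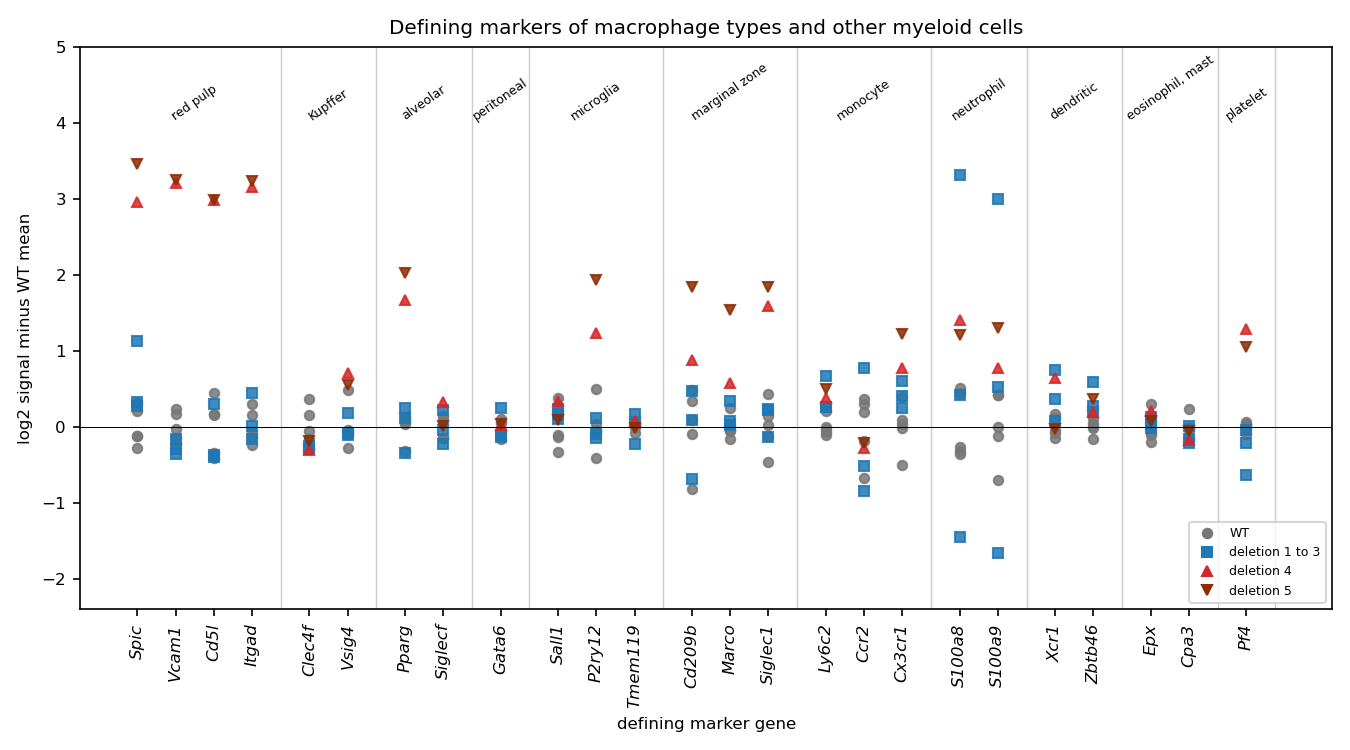
Log2 signal minus the WT mean (y axis) for defining markers (x axis), grouped by macrophage type or other myeloid cell. Grey circles are WT arrays, blue squares deletion arrays 1 to 3, and red and brown triangles deletion arrays 4 and 5. The triangles are near 3 or above for Spic, Vcam1, Cd5l and Itgad, and between 0.5 and 2.1 for Pparg, P2ry12, Cd209b, Marco and Siglec1. They are within the other symbols for Gata6, Tmem119 and Ccr2. For Clec4f the triangle of array 4 is at the lower end and that of array 5 within the other symbols.

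Granulocytes and dendritic cells were compared in the same way. Of 16 neutrophil markers 0 had both arrays above the other 8, with a median difference of 0.15. Deletion array 1, one of the other 8, had a list mean of 5.16, against 4.69 and 4.73 on deletion arrays 4 and 5 and 4.31 to 4.59 on WT arrays. S100a8 was at 7.35 and 7.15 on deletion arrays 4 and 5, above the WT arrays (5.58 to 6.45) and below deletion array 1. Of 12 markers of eosinophils, mast cells and basophils 1 did, Il5ra, and Epx, the eosinophil peroxidase, was at 3.67 and 3.54, against 3.25 to 3.76 in WT, and Cpa3, the mast cell carboxypeptidase, at 2.95 and 3.08, against 2.97 to 3.37 in WT. Conventional dendritic cells had 7 of 15 markers above and 1, Cadm1 (2.21), by at least 1 log2 unit, with a median of 0.73. Xcr1, which defines a subset of them, was at 4.89 and 4.22 on deletion arrays 4 and 5, against 4.11 to 4.42 in WT and 4.33 to 5.00 in deletion samples 1 to 3. Zbtb46, their transcription factor, was at 5.44 and 5.62, above 5.09 to 5.36 in WT but not above all of deletion arrays 1 to 3, which lay at 5.44 to 5.83. Plasmacytoid dendritic cells had 4 of 10 above and 1, Lair1 (2.22), a receptor of many leukocytes, by at least 1 log2 unit, with a median of 1.03. Of 15 erythroid markers 4 had both arrays above and 0 by at least 1 log2 unit, with a median of 0.03, and Klf1, the erythroid transcription factor, was at 5.05 and 4.74, against 4.56 to 4.95 in WT. The globin genes are not represented by a probe set naming 1 gene and were not analysed here.

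By these counts 31 of 34 markers of the red pulp list (91.2%) were separated by at least 1 log2 unit. The share was 13 of 33 (39.4%) for macrophages in general. It was 2 of 10 for Kupffer cells and for nonclassical monocytes (20% each), 2 of 13 for alveolar macrophages (15.4%) and 1 of 11 for microglia (9.09%). It was 0 for large peritoneal macrophages, marginal zone macrophages and classical monocytes, and 0.87% over all genes. The red pulp list was chosen for high values on these 2 arrays, so the difference between the shares is a description and was not tested. Cell types share many markers: Timd4, Cd163, Cd5l, Vcam1 and Slc40a1 of the red pulp list are also known from Kupffer cells and from macrophages of the bone marrow. These genes counted for the red pulp list alone, as did Siglec1, Lyz2, Tyrobp and Itgam, which other myeloid cells carry. Keeping such genes out of the other lists can lower their counts, so the shares do not rank the macrophage types.

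**Figure D4:**
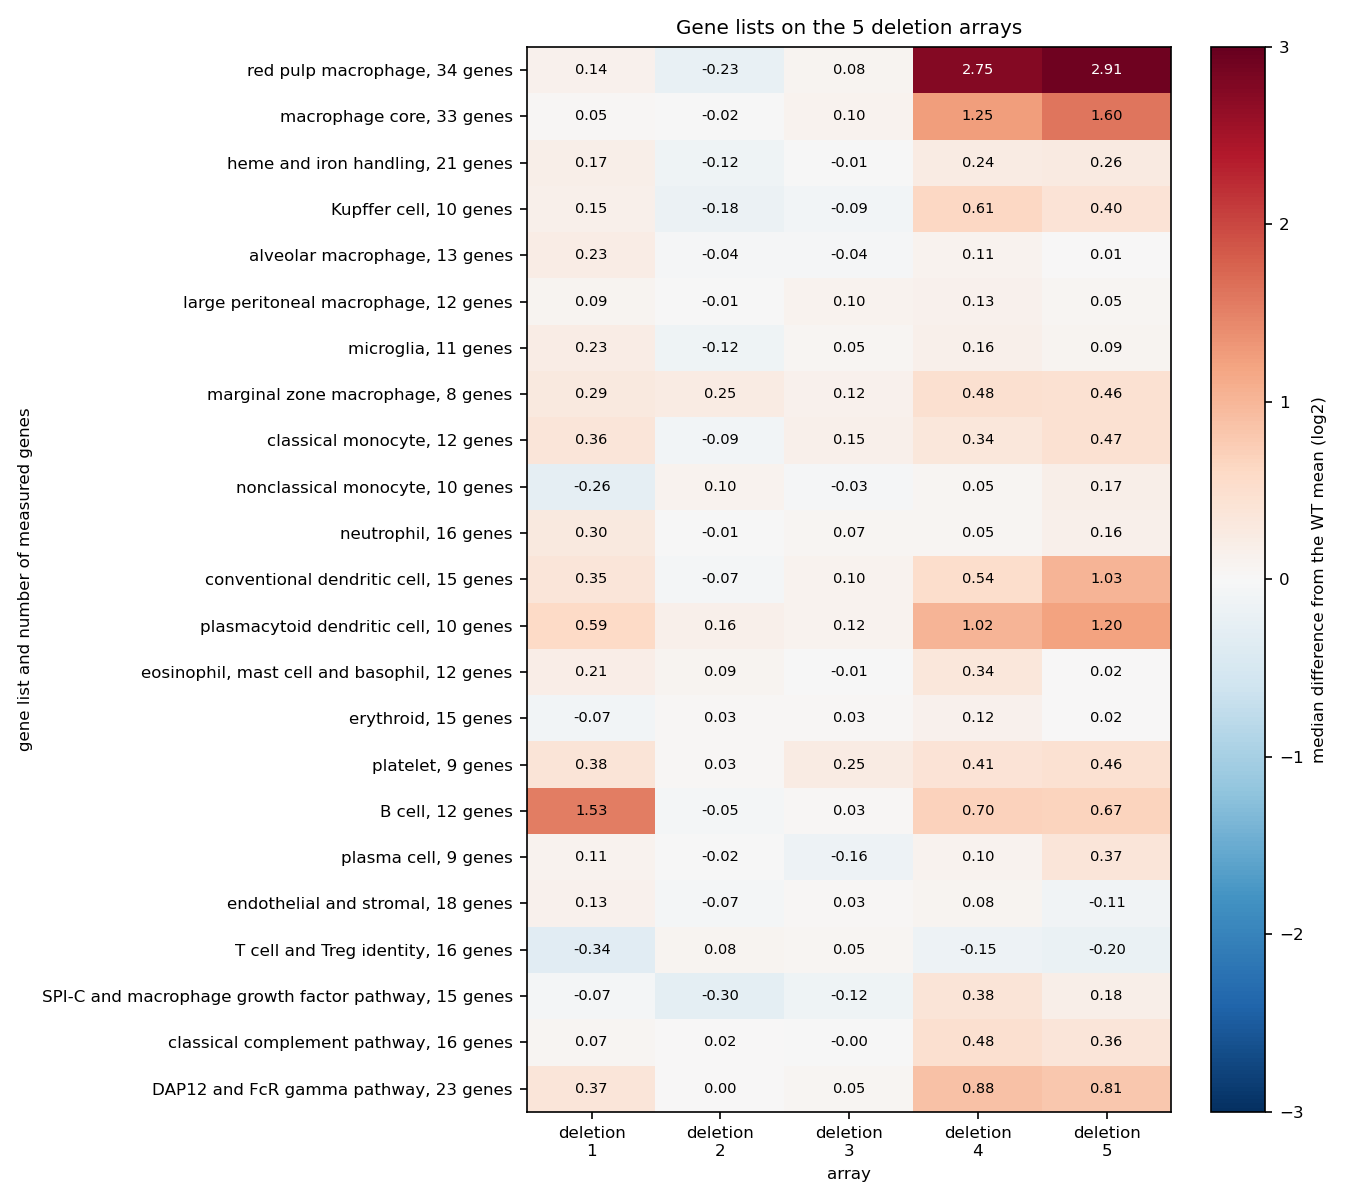
Median difference from the WT mean on the log2 scale (colour and printed value) of each gene list (rows, with the number of measured genes) on the 5 deletion arrays (columns). The red pulp list stands at 2.75 and 2.91 on deletion arrays 4 and 5 and between -0.23 and 0.14 on arrays 1 to 3, and the B cell list is highest on array 1.

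Outside all lists, the 15 genes with the widest separation of deletion arrays 4 and 5 included further myeloid transcripts. Adgre4, a receptor of the F4/80 family, was at 6.13, 6.11, 6.51, 6.07 and 6.05 on WT arrays 1 to 5, at 6.43, 5.38 and 6.43 on deletion arrays 1 to 3, and at 9.68 and 9.72 on deletion arrays 4 and 5. Clec4a3, a C-type lectin of myeloid cells with close copies, was 3.62 above WT and Siglece, a sialic acid receptor, 2.96. Adamdec1, a secreted metalloprotease-like protein of macrophages, was 3.13 above WT, Gfra2, a receptor of the GDNF family, 3.03, and Lrp1, the endocytic receptor that also takes up heme bound to hemopexin, 2.68. The others were Abcc3 (2.73), Slpi (2.62), Klra2 (3.14), Lst1 (2.72), Dnase1l3 (2.58), Sdc3 (2.34), Pla2g7 (2.49), Igf1 (2.43) and Tgfbi (2.43). The 10 genes whose values followed the mean of the 34 genes most closely over the 10 arrays were Tgfbi (Pearson's r = 0.995), Marcks, Gfra2, Lst1, Tbxas1, Igf1, Adgre4, Sdc3, Pla2g4a and Adamdec1 (0.989). These correlations rest on the 2 high arrays and the 10 points share a normalization, so they describe the pattern and carry no p.

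Deletion arrays 4 and 5 were close to each other on most of the 34 genes. Array 5 minus array 4 had a median of 0.11 and ran from -0.17 (Mertk) to 0.95 (Marco), with array 5 the higher on 27 of the 34, where 49.1% of all genes were. Besides Marco, the differences were largest for Itgax (0.73), Timd4 (0.58), Spic (0.49) and Treml4 (0.46). C1qa, C1qc, Slc40a1, Csf1r, Cd5l, Mrc1, Fcgr4, Fcgrt, Tyrobp, Vcam1, Itgad, Adgre1 and Lyz2 differed by less than 0.1 between the 2 arrays.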

How the data were processed

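Treg cells of 5 WT and 5 LKB1-deficient samples were measured on 1 array each. The authors deposited 1 log2 signal for each of 41345 probe sets and array. Per the submitters' processing notes, RMA, which subtracts background, aligns the distributions of the arrays and summarises probes, and Partek 6.6 were used, in an order and with settings that are not stated. Per the labels' protocols, nanogram amounts of RNA were amplified and labelled with NuGEN kits, which can distort the levels of some transcripts. The deposited log2 table has no detection calls, so low values cannot be told from background, and the number of arrays limits the precision.

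Of the probe sets 23521 named 1 gene through the platform annotation, 1814 several and 16010 none. Of several probe sets of a gene the one with the highest mean was kept, which left 22180 genes, and each of the 34 listed genes had 1 probe set. No low value was removed. Groups and replicate numbers came from the sample titles. Deletion was compared with WT in limma 3.58.1 (R 4.3.3), lmFit and eBayes without covariate, with Benjamini-Hochberg adjustment over all 22180 genes and a threshold of 0.05, and WT sets in a fit of 4 cells. It is not stated that the samples of a group are separate animals, so a p-value reflects only how these samples vary, which may be technical. In simulated data for the genotype comparison (22180 genes, 200 changed), 94% of genes changed by 1 log2 unit were recovered. This share does not give the power for the 34 listed genes, most of which split the deletion arrays into high and low values. Their SEs in the genotype comparison ran from 0.16 (Ctss) to 0.72 (Ccr3).

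The 34 genes, the 22 marker and pathway lists (316 of 355 entries measured) and the tests were chosen with earlier results of these data known. Named were all 34 genes, with values on each array for 26 of them (those in the text), up to 4 genes of each other list by separation with its defining markers, 15 genes outside the lists by separation, and 10 by correlation. Alternatives were the mean of probe sets, removal of the dimmest 40% of genes, equal array medians, a second quantile normalization, other variance priors, array weights, blocks, each set alone, an adjusted p under 0.01 and each array left out. Leaving out deletion arrays 4 and 5 together was added after seeing the data.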

Additional observations from a re-analysis of the deposited data

Results flagged for a closer look

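On 8 of the 34 genes every deletion array of set 1 lay below the mean of the WT arrays of that set, while both deletion arrays of set 2 lay above theirs. The difference in set 2 minus that in set 1, with the change from the first set to the second in parentheses, was C1qb (3.24, from -0.33 to 2.92), Fcna (3.51, from -0.27 to 3.24), Axl (2.83, from -0.53 to 2.30), Mrc1 (3.65, from -0.22 to 3.42), Vcam1 (3.81, from -0.40 to 3.42), Adgre1 (3.65, from -0.17 to 3.47), Ccr3 (3.82, from -0.29 to 3.52) and Ctss (0.66, from -0.28 to 0.38) log2 units. The share of all genes with this pattern was not counted, so nothing is read from the 8. The difference between the sets was not tested, since the arrays of set 2 chose the genes. For Vcam1 the 3 deletion arrays of set 1 were also below all 3 WT arrays of that set, as they were for Ccr3, which held for 9.79% of all genes. They were above all 3 for Itgam, Itgax and Lyz2, which held for 7.45% of all genes. No gene of the 34 had a single array apart from the other 4 of its group by Dixon's criterion for 5 values (critical value 0.71).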

How the results depend on the processing

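With all 34 genes and both directions, limma called 0 genes in the genotype comparison under the mean of probe sets, without dim genes and with equal medians. The same held after a second quantile normalization, with a trended robust prior, without moderation, with array weights and at an adjusted p under 0.01. Limma also called 0 with set 1 and set 2 as blocks and with set 1 alone. With each array left out in turn it called 0 to 1 gene higher, the 1 being Itgax without deletion array 2 (1.75, adjusted p = 0.0429, against 0.0053 in set 2 alone to 0.564 in set 1 alone over the other fits), and 0 lower. Set 2 alone called 32 higher. With the replicate block it called 0 higher and 0 lower. Pairing by replicate number was not apparent, as the correlations of same-numbered deviations from the group means ran from -0.08 to 0.10. Only 3 of the 10 samples correlated best with their own number. With 5 numbers this check cannot exclude a pairing. The count of genes with deletion arrays 4 and 5 above the others was 33 to 34, and their median difference from WT 2.75 to 2.91, with each array left out, and 33 genes with 2.79 to 2.84 in the normalization alternatives. The WT comparison between sets called 0 of the 34 in each alternative run.

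Signs turned in 40 of 748 differences of single genes. With set 1 alone these were C1qa -0.082, C1qb -0.33, C1qc -0.12, Fcna -0.27, Hmox1 -0.33, Slc40a1 -0.23, Cd163 -0.021, Csf1r -0.0045, Mertk -0.18, Axl -0.53, Timd4 -0.35, Cd5l -0.41, Mrc1 -0.22, Fcgr4 -0.085, Fcgrt -0.046, Vcam1 -0.40, Itgad -0.029, Adgre1 -0.17 and Ccr3 -0.29. Without deletion arrays 4 and 5, a fit chosen after seeing the data that called 0 of the 34, they were C1qb -0.21, C1qc -0.0077, Fcna -0.20, Hmox1 -0.30, Slc40a1 -0.28, Cd163 -0.032, Mertk -0.21, Axl -0.46, Timd4 -0.21, Cd5l -0.16, Mrc1 -0.054, Fcgrt -0.046, Vcam1 -0.27, Adgre1 -0.063 and Ccr3 -0.21. Leaving out these arrays had to lower every difference, by their choice. Ctss turned to 0.38 in set 2 alone and 0.056 with array weights, and ran from -0.13 to 0.11 with each array left out, turning without WT array 1 (0.02) or deletion array 1 (0.11), 2 (0.04) or 3 (0.0022). Low signals cannot be told from background, which limits what the overlapping markers show.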

Other observations

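Some transcripts of other blood cells were also high on deletion arrays 4 and 5. Jchain, the joining chain of secreted antibodies, was at 5.71, 4.90, 5.78, 5.58 and 4.51 on WT arrays 1 to 5, at 6.34, 5.60 and 5.98 on deletion arrays 1 to 3, and at 8.31 and 9.10 on deletion arrays 4 and 5. Mzb1, a chaperone of antibody-secreting cells, was at 6.20 and 6.90 on deletion arrays 4 and 5, against 4.68 to 5.26 in WT. Of 9 plasma cell markers 3 had both arrays above the other 8 and 1, Jchain, by at least 1 log2 unit, and the median difference of the list from WT was 0.18. The median of the 12 B cell markers was 0.62, and the mean of that list on deletion arrays 4 and 5 lay above its WT means, although 0 of 12 were above the other 8 arrays, of which deletion array 1 is the highest on the list's mean. The mean of the plasma cell list was 6.20 and 6.64 on deletion arrays 4 and 5, against 5.67 to 6.02 on WT arrays. Ppbp, a chemokine of platelets, was at 5.83, 6.30, 6.45, 5.93 and 6.24 on WT arrays 1 to 5, at 6.63, 6.14 and 6.53 on deletion arrays 1 to 3, and at 8.97 and 8.89 on deletion arrays 4 and 5, and Pf4, another, was at 6.68 and 6.44, against 5.29 to 5.46 in WT. The mean of the 9 platelet markers was 6.0 and 5.91, against 5.12 to 5.30 on WT arrays. The endothelial and stromal list had a median difference of 0.01, with 2 of 18 above, Eng (0.59) and Stab2 (0.64), a receptor of sinusoidal endothelium. The T cell and Treg identity list had 0 of 16 above and a median of -0.19. Cd4 was at 9.91 and 9.90, against 9.90 to 10.08 in WT. The part of these cell types in the values of the 34 genes was not tested.

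Some genes of marginal zone macrophages and antibody-secreting cells were higher on deletion array 5 than on deletion array 4. Array 5 minus array 4 was 0.95 for Marco, 0.96 for Cd209b, 0.65 for Cd209d, 0.79 for Jchain and 0.70 for Mzb1, against a median of 0.11 over the 34 genes and -0.01 over all genes. These 5 genes were chosen after their values were seen, and with 1 array on each side the differences have no replicate check.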
